A study of Rattus norvegicus with 6 samples.

Results

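Both mature arms of the rat microRNA (miRNA) miR-21, rno-miR-21-5p and rno-miR-21-3p, were followed in rat skeletal muscle cells given interleukin-8 (IL-8) and in untreated cells. They were picked out by their names in the array annotation and are 2 of the 719 rat miRNAs on the array, read by 6 of its 1730 rat miRNA probes and 40 of the 14380 rat miRNA spots on each array. The study compared miRNA profiles to see what IL-8 changes in muscle cells as they differentiate. Primary cells from the limb muscle of newborn rats, bought frozen at the second passage, were switched to medium with 2% horse serum and kept in it for 11 days. The IL-8 group (n = 3 samples) received 1 ng/ml of recombinant IL-8 made in Escherichia coli, and the control group (n = 3 samples) was left untreated. Total RNA (100 ng, RNA integrity number 9.5 to 10.0) was labelled with Cy3 and each sample was hybridised to its own 1-colour Agilent array.

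IL-8, also called CXCL8, is a chemokine that attracts neutrophils through the receptors CXCR1 and CXCR2. Rodents have no direct counterpart of the human CXCL8 gene, and the labels do not name the species of the recombinant protein. A miRNA gene is transcribed as a long precursor, which Drosha trims to a hairpin and Dicer cuts to a duplex of 5p and 3p arms. Usually one arm is loaded into an Argonaute protein and guides it to messenger RNAs, while the other arm, the passenger, is mostly degraded. For miR-21 the guide is the 5p arm. It is among the most abundant miRNAs of many cultured cells, in human cells its gene is known to be switched on by STAT3 and AP-1 and its maturation to be promoted by TGF-beta signalling, and its known targets include Pdcd4, Spry1 and Reck. In muscle and heart, miR-21 is best known from fibroblasts and fibrosis.

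The sequences show which bases of each arm the array can read. RefSeq, with the GRCr8 assembly, gives both arms at 22 bases, shown here from 5′ to 3′ with the seed, bases 2 to 8, in capitals.
rno-miR-21-5p: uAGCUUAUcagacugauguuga
rno-miR-21-3p: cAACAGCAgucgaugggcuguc
The seeds differ, and no other of the 693 rat mature miRNAs in the RefSeq list has either of them, so neither arm has a seed relative on the array among the 651 of 719 miRNAs matched to that list. In the hairpin, which RefSeq places on the minus strand of chromosome 10 in GRCr8, the 5p arm holds bases 18 to 39 and the 3p arm bases 56 to 77 of 92. Both arms are in capitals here.
Mir21 hairpin: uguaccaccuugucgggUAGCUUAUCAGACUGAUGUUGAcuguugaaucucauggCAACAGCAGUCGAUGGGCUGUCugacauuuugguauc
No other gene of the GRCr8 annotation overlaps the hairpin, and its nearest neighbours there are Vmp1, which codes for a membrane protein of autophagy, and Tubd1, which codes for delta-tubulin.

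All probes reach the 3′ end of their arm, and none covers a whole seed. The 5p probes cover most of their arm and of its seed, while the 3p probes cover mainly the part behind the seed. They are printed because probes of different length for the same arm gave different signals. Capitals mark the bases that a probe has beyond the shortest probe for the same arm.
5p, 20 bases: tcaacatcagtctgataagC
5p, 19 bases: tcaacatcagtctgataag
3p, 15 bases: gacagcccatcgACT
3p, 14 bases: gacagcccatcgAC
3p, 13 bases: gacagcccatcgA
3p, 12 bases: gacagcccatcg
The 5p probes pair with bases 3 to 22 and 4 to 22 of their arm, and the 3p probes with bases 8, 9, 10 or 11 to 22 of theirs. No probe matched another rat mature miRNA of the RefSeq list over its full length. The array files place the 5p probes at chr10:74864520-74864538 and chr10:74864521-74864538 and the 3p probes at chr10:74864563-74864576, chr10:74864564-74864576, chr10:74864565-74864576 and chr10:74864566-74864576 in the rn4 build, without a strand. Each interval counts 1 base fewer than its probe. Gene annotation of rn4 was not used here, so the exon or intron around these positions is not given.

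The IL-8 arrays shared a slide that held no control array, and the control arrays shared another, so a slide effect and an IL-8 effect cannot be told apart. Separate cultures are not stated for the samples of a group, so each p-value reflects only the spread between the samples at hand, which may be technical. The 3 IL-8 arrays had 168 to 180 miRNAs well above background and the 3 control arrays had 154 to 164. Of the arms of the muscle-enriched miRNAs, among them miR-206, miR-1 and miR-133a, 0 of 14 were well above background on any array, which goes against the muscle label as far as miRNAs show it. Of the miRNAs typical of fibroblasts and smooth muscle, 6 of 8 were well above background on all 6 arrays, including both arms of miR-199a and miR-143. Their summed, unscaled gene signal was 24251 to 24470 on IL-8 arrays and 18709 to 24021 on control arrays, where the median tested miRNA was also higher with IL-8, by 0.24 on the unscaled log2 scale. After scaling 1 of the 6 was higher and 5 were lower with IL-8, with a median log2 change of -0.024 and 0 called by limma (0 at an unadjusted p under 0.05). Of all 167 tested miRNAs 94 were higher and 73 lower, with a median of 0.016. Limma called 5.99% of all tested, and 24.6% had an unadjusted p under 0.05. Markers of blood (0 of 7), endothelium (0 of 2) and epithelium (0 of 8) were not well above background on any array. Fewer cells of a type and less RNA per cell cannot be told apart in such bulk samples.

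The 5p arm gave strong signals on every array. Here and below, the processed signal is the background-subtracted spot intensity, averaged over the spots of a probe. The 20-base probe read 14301, 15083 and 15344 on the IL-8 arrays of replicates 1, 2 and 3, against 10345, 12684 and 14968 on the control arrays. The 19-base probe read 7363, 7586 and 7663 on the IL-8 arrays and 5268, 6620 and 7631 on the control arrays. With both probes control replicate 1 was lowest and control replicate 3 lay among the IL-8 values, and the IL-8 arrays were closer together than the control arrays. The 10 spots of the 20-base probe varied with a coefficient of variation of 10.9% to 14.7%, and those of the 19-base probe with 8.04% to 12.4%. No miR-21 spot was saturated, and the software called 1 of the 20-base spots an outlier, on the array of IL-8 replicate 3.

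The 3p arm was dim and was read by its longer probes alone. The 15-base probe read 32.1, 35.7 and 28.9 on IL-8 arrays and 29.1, 31.5 and 31.0 on control arrays. The 14-base probe read 23.0, 24.7 and 18.7 on IL-8 arrays and 18.5, 19.3 and 20.7 on control arrays. These were well above background on 6 of 6 arrays and over the 95th percentile of the 434 negative control spots, which was 7.92 to 11.9 over the 6 arrays. The highest single negative spot was above the 15-base probe on 3 arrays, all of them control arrays. It was above the 14-base probe on 4, the control arrays and that of IL-8 replicate 3. That spot read 17.1, 16.2 and 18.8 on IL-8 arrays and 46.9, 36.6 and 82.5 on control arrays, so this limit differed between the groups. The 13-base probe read 4.68, 3.62 and 0.196 on IL-8 arrays and 0.987, 0.180 and 2.16 on control arrays, and the 12-base probe read -4.98 to 0.925 on IL-8 arrays and -4.97 to -3.87 on control arrays. Both shorter probes were well above background on 0 of 6 arrays and were left out of the levels. The 5 spots of a 3p probe varied by 6.87% to 18.6% with 15 bases and by 6.39% to 24.9% with 14 bases, and these ranges overlap those of the 5p probes.

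**Figure D1:**
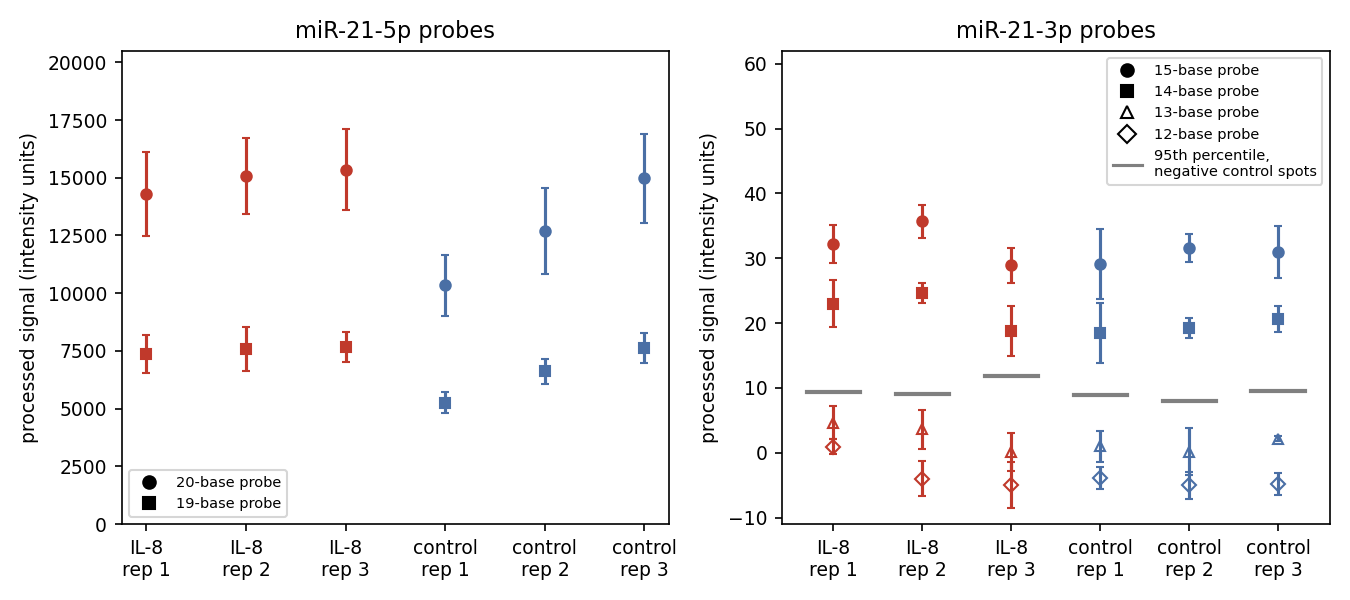
Processed signal (intensity units, linear axis) of each miR-21 probe on each array, as the mean and SD over its spots, for 5p probes (left) and 3p probes (right), with IL-8 arrays in red and control arrays in blue. Filled symbols are probes used in the levels, and grey bars are the 95th percentile of the negative control spots; the 5p probes lie between 5268 and 15344, while the 13- and 12-base 3p probes lie under the grey bars on every array.

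Longer probes were brighter for both arms. The 20-base over 19-base signal was 1.94, 1.99 and 2.00 on IL-8 arrays and 1.96, 1.92 and 1.96 on control arrays. The 15-base over 14-base signal was 1.40, 1.45 and 1.54 on IL-8 arrays and 1.57, 1.64 and 1.50 on control arrays. In both cases the ranges of the groups overlapped. The longest probe was also brightest for 147 of 151 miRNAs that had at least 2 probes of distinct length and 1 of them well above background on all arrays, and miR-21-5p with its mean ratio of 1.96 was close to the median ratio of 1.84 (quartiles 1.46 and 2.42) over 107 miRNAs with 2 such probes. A probe's brightness thus went with its length, which was not separated from the bases it covers, and no brightness here is an amount of RNA.

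To compare arrays, the signal was divided by each array's 75th percentile over 264 probes well above background on all 6 arrays, log2 was taken, and the probes of an arm were averaged. On this scale 0 is the percentile, so a value says how an arm stood among the array's other miRNAs. The scaled log2 level of miR-21-5p was 4.17, 4.28 and 4.33 in IL-8 samples and 4.07, 4.27 and 4.43 in control samples. Control replicates 1 and 3 were the lowest and the highest of the 6, with all IL-8 values between them. The level averaged 4.26 ± 0.08 in IL-8 samples and 4.25 ± 0.18 in control samples (SD, n = 3 each), a log2 change of 0.0069 (SE 0.096). This is 1.00-fold of control, with a 95% confidence interval of 0.860 to 1.17. By limma with Benjamini-Hochberg adjustment over the 167 tested miRNAs the adjusted p was 0.973. The difference was smaller than the spread within either group. The interval of 0.860 to 1.17 holds for the scaled level in this fit alone, and it cannot separate IL-8 from the slide.

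The scaled log2 level of miR-21-3p was -4.39, -4.21 and -4.54 in IL-8 samples and -4.25, -4.27 and -4.30 in control samples. IL-8 replicate 2 was the highest of the 6 and the other IL-8 samples were the lowest, so the groups overlapped. The level averaged -4.38 ± 0.16 in IL-8 samples and -4.27 ± 0.02 in control samples (SD, n = 3 each), a log2 change of -0.11 (SE 0.084) that turned to 0.13 without scaling and to 0.10 with spike-in scaling. The fold was 0.928 of control (95% confidence interval 0.810 to 1.06), and the limma adjusted p was 0.514. Another background correction, normexp with an offset of 50, gave a log2 change of -0.16 and a limma adjusted p of 0.0246, the one of 23 alternative limma settings in which an arm passed the threshold. In that setting 24 of the 167 miRNAs passed, 1 up and the rest down, and the median of all was -0.070, so miR-21-3p stood at -0.088 relative to it, against -0.12 with the standard background subtraction. Without IL-8 replicate 3 the log2 change of the 3p arm was -0.024.

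With percentile scaling 0 of 2 arms passed an adjusted p of 0.05 by limma, and 0 of 2 had an unadjusted p under 0.05 (0.944 for the 5p arm and 0.240 for the 3p arm). Of the 167 tested miRNAs 10 passed (5.99%), and 41 had an unadjusted p under 0.05 (24.6%). The groups overlapped for both arms, while in 50 of all 167 (29.9%) they were apart. The number of miRNAs that passed rested on single arrays. It was 3, 1 and 1 without IL-8 replicate 1, 2 or 3, and 7, 5 and 29 without control replicate 1, 2 or 3. An exact two-sided permutation test over the 20 splits of the arrays gave p = 0.9 for the 5p arm and p = 0.4 for the 3p arm, where the smallest p possible is 0.1.

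**Figure D2:**
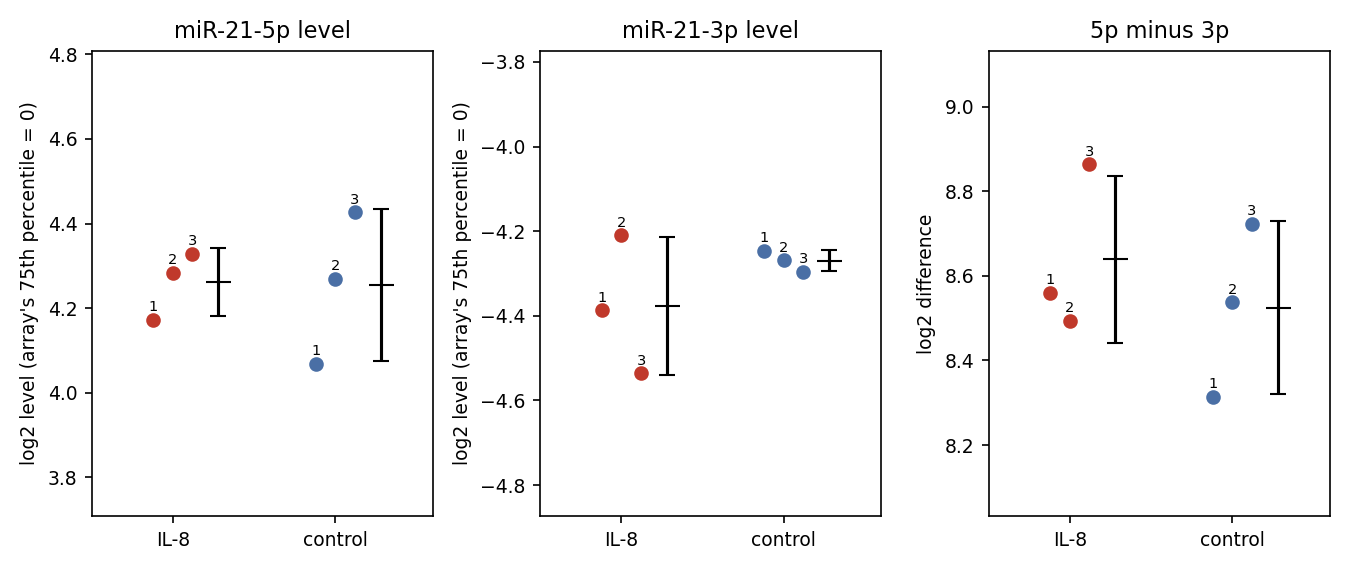
Scaled log2 level of miR-21-5p (left) and miR-21-3p (middle) and the log2 difference of 5p minus 3p (right) in each sample, numbered by replicate, with the mean and SD of each group of 3 in black. The axes do not start at 0 and span the same log2 range; in all panels the IL-8 and control samples overlap, and the group means differ by 0.0069, -0.11 and 0.11.

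Without scaling the 5p arm shifted by as much as the median miRNA. The 75th percentile was 569, 549 and 540 on IL-8 arrays and 440, 475 and 497 on control arrays, so all IL-8 arrays were brighter (exact two-sided permutation p = 0.1, the smallest possible). Without scaling, the median log2 change of all tested miRNAs was 0.24, and that of miR-21-5p was also 0.24, so relative to the other miRNAs it was 0.0045. With spike-in scaling the median was 0.22 and miR-21-5p lay at -0.00088 relative to it. Relative to the same medians, miR-21-3p was at -0.11 without scaling and -0.12 with spike-in scaling.

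The single probes gave the same picture. In a limma fit over 300 probes, of which 16 passed (5.33%), the log2 change was 0.018 for the 20-base probe (adjusted p = 0.939) and -0.0043 for the 19-base probe (adjusted p = 0.986). It was -0.16 for the 15-base probe (adjusted p = 0.297) and -0.056 for the 14-base probe (adjusted p = 0.789). The 5p probes thus differed in sign, both within 1 SE of 0, and 0 of the 4 probes passed, with 0 at an unadjusted p under 0.05 (lowest 0.0910), where 63 of the 300 (21%) were.

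**Figure D3:**
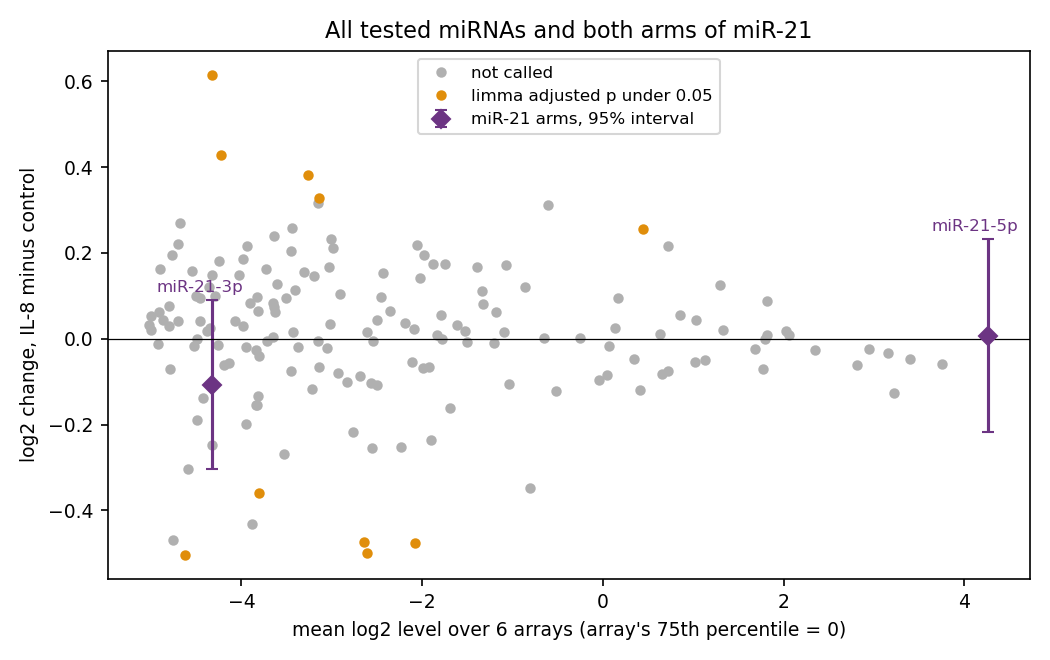
Log2 change, IL-8 minus control (vertical), against the mean scaled log2 level over 6 arrays (horizontal) for all 167 tested miRNAs, with the 10 that passed limma's adjusted p of 0.05 in orange and the miR-21 arms in purple with their 95% confidence intervals. The 5p arm lies at the bright end at a change of 0.0069 and the 3p arm at the dim end at -0.11, and both intervals cross 0.

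By brightness, miR-21-5p came first among the detected miRNAs on each of the 6 arrays. This order is one of probe signals, which can depend on sequence and length. On control replicate 1 the brightest probes of miR-125b-5p and miR-143-3p were above the 20-base probe, so it ranked 3 there when only the brightest probe of each miRNA was used. The software's total gene signal for miR-21-5p, which sums its probe readings by the array maker's rule, was 14734, 15543 and 15822 on IL-8 arrays and 10522, 12970 and 15356 on control arrays. The software's own error on these was 7.47% to 7.49% of the value. As a share of the summed gene signal of all detected miRNAs this was 11.7%, 12.1% and 12.3% on IL-8 arrays and 10.9%, 11.8% and 12.6% on control arrays. Again control replicates 1 and 3 lay outside the IL-8 samples on either side. An exact two-sided permutation test gave p = 0.7, where the smallest p possible is 0.1. The next brightest, miR-143-3p, a miRNA of smooth muscle and fibroblasts, lay below it by 1.27 to 1.34 times in signal on IL-8 arrays and 1.15 to 1.33 times on control arrays. In mean scaled log2 level miR-143-3p had 3.72 ± 0.05 in IL-8 samples and 3.78 ± 0.08 in control samples, and miR-125b-5p had 3.38 ± 0.11 in IL-8 samples and 3.42 ± 0.08 in control samples (SD, n = 3 each), so both were below miR-21-5p by more than the SDs of the miRNAs compared.

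The 3p arm stood near the lower end of the detected miRNAs. It ranked 139 of 180, 134 of 169 and 148 of 168 on the IL-8 arrays, a mean rank of 140.3 ± 7.09, against 138 ± 2.65 on the control arrays, of 154, 156 and 164 detected (SD, n = 3 each). Its total gene signal was 18.8, 20.7 and 16.4 on IL-8 arrays, against 16.0, 17.1 and 17.5 on control arrays, with a software error of 10.0% to 13.0%. Its share of the summed signal was 0.0128% to 0.0160% on IL-8 arrays and 0.0144% to 0.0166% on control arrays (exact two-sided permutation p = 0.5). Over the tested miRNAs its mean level came at place 137 of 167, between miR-376b-3p and miR-1839-3p above and miR-361-5p and miR-338-3p below. In IL-8 samples miR-376b-3p had -4.24 ± 0.03, miR-1839-3p -4.44 ± 0.08 and miR-361-5p -4.25 ± 0.04, all within 1 SD of miR-21-3p, taking the larger SD of each pair, while miR-338-3p with -4.02 ± 0.04 was further away. In control samples miR-1839-3p with -4.20 ± 0.15 was within 1 SD, and miR-376b-3p with -4.34 ± 0.02, miR-361-5p with -4.40 ± 0.04 and miR-338-3p with -4.64 ± 0.28 were lower than miR-21-3p by more than 1 SD. The neighbour miR-338-3p is one of the 10 miRNAs that passed the test.

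The 5p and 3p signals were then set against each other on each array, which asks whether the balance of the arms moved with IL-8. The scaled log2 level of 5p minus that of 3p was 8.56, 8.49 and 8.86 in IL-8 samples and 8.31, 8.54 and 8.72 in control samples. In linear terms the 5p signal was 377, 360 and 466 times the 3p signal on IL-8 arrays and 318, 372 and 422 times on control arrays. IL-8 replicate 3 was highest and control replicate 1 lowest, with the rest mixed. The difference averaged 8.64 ± 0.20 in IL-8 samples and 8.52 ± 0.20 in control samples (SD, n = 3 each). Since probes of unequal length read the arms, the size of this difference is no ratio of amounts, and only its change between groups was tested. The change was 0.11 (SE 0.14), which is 1.08-fold with a 95% confidence interval of 0.860 to 1.36. In a limma fit over the 19 miRNAs with both arms tested, the adjusted p was 0.586. An exact two-sided permutation test gave p = 0.5. From total gene signals the ratio was 786, 751 and 966 on IL-8 arrays and 656, 760 and 875 on control arrays, also with p = 0.5 by the exact permutation test.

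Among the 19 arm pairs, miR-21 had the largest difference in brightness between its arms. The 5p arm was brighter in 11 pairs and the 3p arm in 8, and the size of the mean log2 difference had a median of 2.63 and a range of 0.083 to 8.58, the last being miR-21. The pairs with the 5p arm most in excess after it were miR-34a with 6.28, whose gene p53 activates, miR-99a with 5.04, and miR-125a with 3.84. Their log2 changes with IL-8 were -0.16 for miR-34a (limma adjusted p = 0.261), -0.088 for miR-99a (adjusted p = 0.542) and -0.099 for miR-125a (adjusted p = 0.363). Of the 19 pairs limma called 0 (0%), 3 had an unadjusted p under 0.05 (15.8%), and the groups did not overlap in 5 (26.3%). The pair of miR-21 was in none of these counts.

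**Figure D4:**
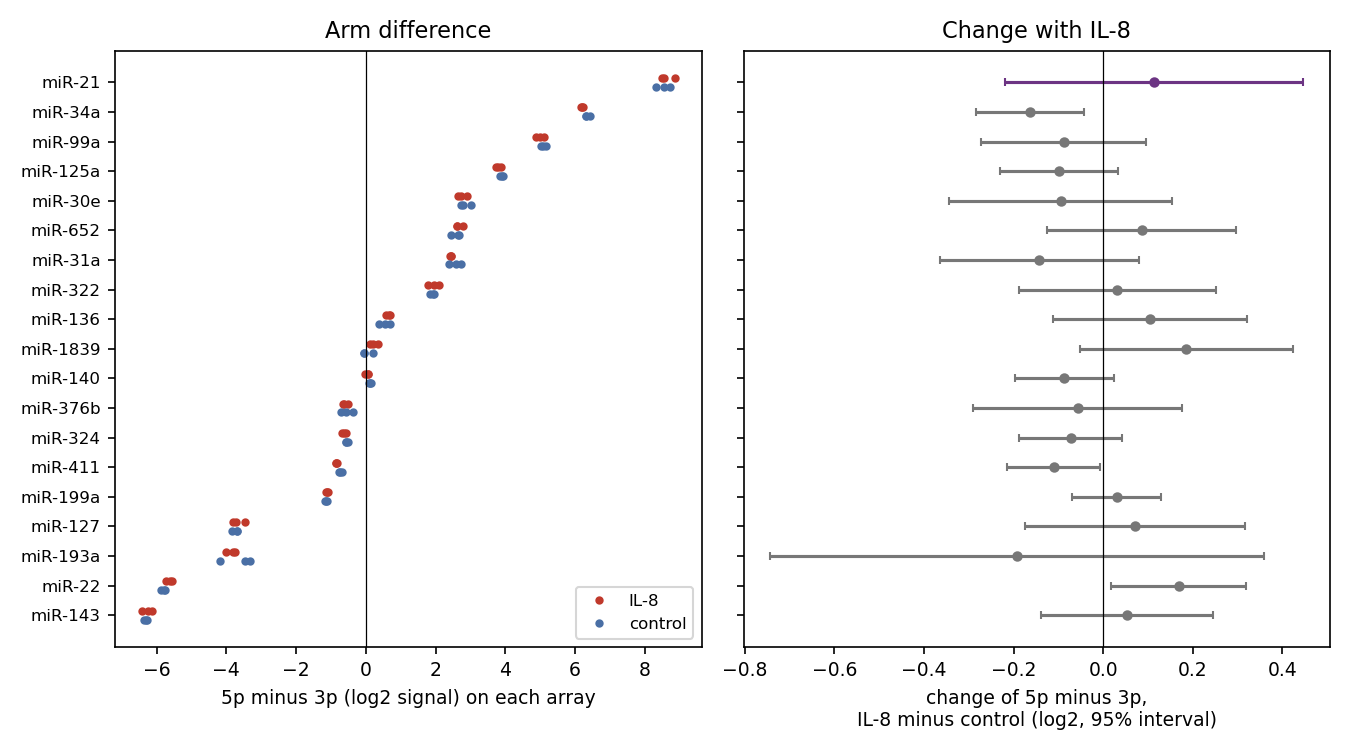
Log2 signal of 5p minus 3p on each array for the 19 miRNAs with both arms tested (left, IL-8 in red above control in blue) and its change, IL-8 minus control, with the 95% confidence interval (right, miR-21 in purple). miR-21 is the top row, with differences of 8.31 to 8.86 over the 6 arrays and a change of 0.11 whose interval of -0.22 to 0.45 crosses 0.

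Across the 6 arrays the scaled levels of the arms had a Pearson r of -0.21. This description depended on the scaling, since r was 0.49 without scaling, 0.41 with spike-ins, -0.42 with the median and -0.61 with quantile normalization. The miRNAs whose levels were most like miR-21-5p over the 6 arrays were miR-16-5p (r = 0.984), miR-199a-5p (0.969), miR-19b-3p (0.967), miR-34a-5p (0.955) and miR-31a-3p (0.946). Those most like miR-21-3p were miR-324-5p (r = 0.782), miR-431 (0.768), miR-320-3p (0.758), miR-652-5p (0.727) and miR-99b-5p (0.722). These are the 5 highest of 166 values for each arm on arrays that share their scaling factors. The median r over all 166 was 0.41 for the 5p arm and -0.13 for the 3p arm. Without scaling it was 0.86 and 0.57. Of the 5p companions miR-19b-3p came among the 5 highest in 2 of 4 other scalings, miR-199a-5p and miR-31a-3p in 1, and miR-16-5p and miR-34a-5p in 0. Of the 3p companions miR-320-3p did so in 3, miR-652-5p in 1 and the others in 0.

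Of the other miRNAs described in the pathways of miR-21, from lists drawn from general knowledge, 1 passed the test. Of 12 miRNAs described beside miR-21 in inflammatory signalling, not in every cell type, 11 were on the array and 7 were tested. Not all of them are described to rise, so the counts and the median below are not those of an induced set. Of these 7, limma called 0 higher and 1 lower, against 2.99% of all tested miRNAs in either direction alone. In value 2 were higher and 5 lower, beside 94 and 73 of all tested. The median log2 change was -0.047 beside 0.016 over all tested. The one called was miR-132-3p, a miRNA induced by CREB. Its scaled log2 level was -3.99 ± 0.04 in IL-8 samples and -3.63 ± 0.10 in control samples (SD, n = 3 each), a change of -0.36 (limma adjusted p = 0.0218). This call was lost without IL-8 replicate 1, 2 or 3 (adjusted p = 0.103, 0.157 and 0.169) and without control replicate 2 (adjusted p = 0.0523). It was also lost without scaling (-0.13, adjusted p = 0.303) and with spike-in scaling (-0.15, adjusted p = 0.303), where relative to the median of all tested miRNAs it stood at -0.36 and -0.37, beside -0.38 with percentile scaling. The next smallest p belonged to miR-181b-5p at 0.18 (limma adjusted p = 0.109; 0.41 and 0.0146 without scaling, 0.39 and 0.0249 with spike-ins) and miR-31a-5p at -0.12 (adjusted p = 0.282). By contrast with miR-132-3p, miR-212-3p of the same list was brighter and did not fall. Its scaled log2 level was -1.15 in IL-8 and -1.21 in control samples, a change of 0.062 (limma adjusted p = 0.676) with overlapping groups.

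Of 16 miRNAs described beside miR-21 in TGF-beta signalling and fibrosis, both pro- and anti-fibrotic, 14 were tested. Limma called 0, beside 5.99% of all tested. In value 7 were higher and 7 lower, beside 94 and 73 of all tested, with a median log2 change of -0.0021. Since the list mixes both kinds, opposite moves could cancel in this median. The smallest p belonged to miR-30c-5p, known to target Ctgf, at 0.19 (limma adjusted p = 0.153), followed by miR-26a-5p at 0.13 (adjusted p = 0.228) and miR-29b-3p, which targets collagens, at 0.22 (adjusted p = 0.401). Without scaling these 3 passed at 0.43, 0.36 and 0.45 (limma adjusted p = 0.0233, 0.0273 and 0.0443), and with spike-ins at 0.40, 0.34 and 0.43 (adjusted p = 0.0249, 0.0452 and 0.0249). Limma then called 51 and 36 of all 167 tested miRNAs, whose median had moved to 0.24 and 0.22. Relative to that median these 3 stood at 0.19, 0.12 and 0.21 in both settings. At an unadjusted p under 0.05, miR-30c-5p was the one of the 14, beside 24.6% of all tested.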

How the data were processed

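Per the file headers, the deposited array files hold spot intensities on a linear scale, extracted by Agilent Feature Extraction 10.10.1.1 (the version per the submitters' processing notes) with background subtraction and without normalization between arrays. A deposited matrix on the same linear intensity scale matched the total probe signal of the array files to a relative difference of at most 0.0001. Groups followed the sample titles, although the labels' growth protocol mentions IL-8 also for the control samples.

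Spots of a probe were averaged without outlier spots. A probe was well above background on an array when more than 50% of its spots were so called. The averages were divided by the array's 75th percentile over 264 probes, a floor of -5.03 on the log2 scale was set, and log2 was taken. A miRNA's level was the mean of those of its probes that were well above background in every sample of at least 1 group, which left 167 miRNAs. Background subtraction leaves dim probes near 0, so their ratios are uncertain, and the scaling removes changes shared by all miRNAs. Groups were compared with limma 3.58.1 (lmFit and eBayes, two-sided, all 6 arrays, no covariate) in R 4.3.3 with data.table (version 1.17.8). Adjusted p-values are Benjamini-Hochberg values over all features of a fit, with a threshold of 0.05, and the fits were tested on simulated data. Precision is limited by the 3 arrays per group.

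Named besides the arms were the 5 miRNAs most correlated with each arm, the 2 next above and below each in level, the 3 of smallest p in each list given, and the 3 nearest arm pairs. The list member miR-212-3p was named after its value had been seen. The rule for the arms uses names alone, but miR-21 and the lists were chosen with earlier results of these data known, and 1 further list is not reported here. The floor and the detection share over all spots were settled after a first set of results had been seen, and the earlier choices are among the alternatives. The other alternatives were scalings, background correction, probe summaries, filters, the deposited matrix, array weights, a replicate block, an exact permutation test and leaving out each array.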

Additional observations from a re-analysis of the deposited data

How the results depend on the processing

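In none of 23 alternative limma settings did miR-21-5p pass an adjusted p of 0.05, and its log2 change ran from -0.090 to 0.24. It turned negative with the 75th percentile over all probes (-0.090), median scaling (-0.025) and outlier spots kept (-0.0089). Leaving out single arrays gave -0.070 to 0.098, negative without IL-8 replicate 2 (-0.0042), IL-8 replicate 3 (-0.023) or control replicate 1 (-0.070). miR-21-3p ran from -0.20 to 0.13, with 0.13 without scaling, 0.10 with spike-ins and a call with normexp (-0.16, adjusted p = 0.0246), and from -0.19 to -0.024 without single arrays. The change in arm difference is left within 0.0001 of 0.11 by 11 of the 24 alternatives, such as a factor shared by an array's probes, which cancels between the arms, and those 11 say nothing of stability. In the other 13 it ran from 0.0017 to 0.21, with 0 calls in any limma setting, and its lowest values came without IL-8 replicate 3 (0.0017) or control replicate 1 (0.0087). Among the probes, the 19-base one changed sign with quantile normalization (0.049), no scaling (0.23) and normexp (0.017), the 14-base one without scaling (0.18), and the 15-base one without scaling (0.075), while with normexp the 15-base one passed (-0.17, adjusted p = 0.0352). Without single arrays the 19-base probe ran from -0.085 to 0.084, above 0 without IL-8 replicate 1 (0.034), control replicate 2 (0.015) or control replicate 3 (0.084). The 20-base probe ran from -0.056 to 0.11, below 0 without IL-8 replicate 3 (-0.016) or control replicate 1 (-0.056), and the 14-base probe from -0.14 to 0.046, above 0 without IL-8 replicate 3. The mean rank over arrays was 1.33 for 5p by brightest probe and 150.3 for 3p by total gene signal.

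Of all miRNAs, limma called 0 with the percentile over all probes (9 at an unadjusted p under 0.05), 15 with median scaling (5 up), 17 with quantile normalization (8 up), 51 without scaling (50 up), 36 with spike-ins (all up), 24 with normexp (1 up), 28 with array weights (17 up), 1 without a filter, and 1 to 29 without single arrays. As reported, it was 5 up of 10. Called arm pairs were 4 with total gene signal and 1 without a filter, where limma warned that its variance moderation was unreliable. One fit with array weights stopped before its tolerance was reached. The earlier floor and detection share, alternatives chosen after seeing the data, gave 12 and 10 calls and 12 together, with miR-21-5p at 0.0069 to 0.013 and miR-21-3p at -0.11 to -0.10. The list medians and list members were run under every setting after seeing the data. The medians of the inflammatory and fibrosis lists moved to -0.14 and -0.084 with the percentile over all probes, to 0.19 and 0.23 without scaling and to 0.16 and 0.20 with spike-ins. Their calls became 2 and 3 without scaling and 2 and 1 with array weights, and the fibrosis calls became 3 with spike-ins. Without scaling and with spike-ins the calls included miR-181b-5p, miR-30c-5p, miR-26a-5p and miR-29b-3p, all higher with IL-8, and not miR-132-3p. The inflammatory calls became 0 with the percentile over all probes, total gene signal or no filter. Leaving out single arrays gave 0 to 1 inflammatory and 0 to 1 fibrosis calls, the fibrosis call without control replicate 3. Without scaling and with spike-ins the sign turned for miR-31a-5p (0.11 and 0.090), which stood at -0.12 and -0.13 relative to the shifted median of all miRNAs, beside -0.14 with percentile scaling.

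Samples with the same replicate number had correlated deviations from their group means of 0.288, 0.330 and 0.0857, not all over 0.1, and IL-8 replicates 1 and 2 but not 3 correlated best with their own number, so the numbers were not taken to pair the samples. With the replicate block, the changes were 0.0069 for 5p (adjusted p = 0.948), -0.11 for 3p (adjusted p = 0.400) and 0.11 for the arm difference (adjusted p = 0.362), limma called 8 miRNAs, and the inflammatory list had 0 calls (miR-132-3p adjusted p = 0.0559). The 3p arm rests on 2 dim probes at a processed signal of 18.5 to 35.7, so small changes in its level were not resolved.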
